A study of Mus musculus with 15 samples.

Results

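Ribosome biogenesis and nucleolar genes were followed in A20 cells, a BALB/c mouse B-cell lymphoma line, and in 4 CRISPR clones of that line with a mutated *Foxp1* gene. The set was a named list of 40 genes, many of them known as Myc targets, out of the 41388 genes counted in each library. All 40 were found by symbol and all 40 passed the filter on low counts, as did 13904 genes in all. The groups were the parental line with unedited *Foxp1* (labelled WT), the clones E6.1 and E6.2 with a mutation in *Foxp1* exon 6, and the clones E7.1 and E7.2 with a mutation in exon 7. Foxp1 is a forkhead transcription factor. Each group had 3 RNA libraries grown from separate passages, 15 libraries in all. Each mutant is a single clone, so a difference between a clone and the parental line cannot be told apart from a difference between this clone and any other A20 clone. The 3 parental libraries served as the reference for every clone.

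Ribosomes are assembled in the nucleolus. RNA polymerase I transcribes the ribosomal RNA precursor, small nucleolar RNA-protein complexes (snoRNPs) of the box C/D and box H/ACA classes guide its methylation and pseudouridylation, and a large number of assembly factors cut, fold and export the small and large subunits. Growing B cells and lymphoma cells make many ribosomes, and Myc is the best known activator of these genes. Myc binds DNA with Max at the E-box CACGTG and, less strongly, at variants such as CACGCG.

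These letters were looked for on both strands of the promoter windows that RefSeq gives for mouse build GRCm38.p6, each running from 250 bases before to 50 bases after an annotated transcript start. A window was found for 35 of the 40 genes, and none was used for *Rrs1*, *Fbl*, *Rrp12*, *Npm1* and *Bop1*. CACGTG occurred in 10 of the 35 genes (28.6%), against 8.09% of the 27025 genes with a window. CACGCG also occurred in 10 genes (28.6%), against 10.5% of all genes, and 18 of the 35 genes (51.4%) held either word, against 17.2%. The 27025 genes were not limited to genes expressed in A20 cells, nor matched to the members in the base composition of their windows. The shares were not tested, and whether they would differ from those of such genes is not known. The windows of *Nolc1*, *Nop16*, *Grwd1* and *Ddx18* are shown because these genes, with *Bop1*, carry the called differences below. They lie at chr19:46075597-46075896 on the plus strand, and at chr13:54590025-54590324, chr7:45830740-45831039 and chr1:121567931-121568230 on the minus strand, and capitals mark CACGTG, or CACGCG on either strand.
*Nolc1* promoter: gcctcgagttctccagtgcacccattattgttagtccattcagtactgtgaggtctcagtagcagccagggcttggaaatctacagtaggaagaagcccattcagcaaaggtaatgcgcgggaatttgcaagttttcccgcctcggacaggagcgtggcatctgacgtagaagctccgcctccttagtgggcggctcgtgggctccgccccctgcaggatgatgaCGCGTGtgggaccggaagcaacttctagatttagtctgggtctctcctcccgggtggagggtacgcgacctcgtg
*Nop16* promoter: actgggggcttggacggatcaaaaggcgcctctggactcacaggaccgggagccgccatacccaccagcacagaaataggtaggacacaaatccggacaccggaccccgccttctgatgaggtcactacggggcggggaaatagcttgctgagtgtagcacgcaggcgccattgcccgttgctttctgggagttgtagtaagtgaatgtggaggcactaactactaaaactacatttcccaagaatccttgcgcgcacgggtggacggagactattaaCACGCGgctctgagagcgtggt
*Grwd1* promoter: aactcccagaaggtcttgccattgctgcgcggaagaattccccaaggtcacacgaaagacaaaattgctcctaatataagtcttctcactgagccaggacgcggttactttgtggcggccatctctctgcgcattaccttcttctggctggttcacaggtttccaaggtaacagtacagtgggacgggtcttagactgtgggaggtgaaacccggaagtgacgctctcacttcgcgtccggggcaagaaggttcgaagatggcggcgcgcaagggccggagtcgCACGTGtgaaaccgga
*Ddx18* promoter: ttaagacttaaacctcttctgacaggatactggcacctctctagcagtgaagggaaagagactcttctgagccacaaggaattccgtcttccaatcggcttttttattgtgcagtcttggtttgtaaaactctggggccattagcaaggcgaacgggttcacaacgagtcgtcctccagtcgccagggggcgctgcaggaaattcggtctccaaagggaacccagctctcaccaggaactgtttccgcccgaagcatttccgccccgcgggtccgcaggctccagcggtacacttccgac

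*Nolc1* and *Nop16* held CACGCG (in *Nolc1* on the other strand, read as CGCGTG), *Grwd1* held CACGTG, and the window of *Ddx18* held neither. The annotated start behind a window need not be the one used in A20 cells. The CACGTG sites of the 10 genes are shown with up to 10 bases on each side, to let the flanks be compared, with the E-box in capitals.
*Imp4* site: ggtcttagacCACGTGacatcccaaa
*Nop2* site: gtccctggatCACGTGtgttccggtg
*Grwd1* site: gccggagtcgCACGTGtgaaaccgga
*Utp4* site: cgcaagcgcgCACGTGgggccggggc
*Ltv1* site: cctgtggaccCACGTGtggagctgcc
*Utp20* site: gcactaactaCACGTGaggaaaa
*Pes1* site: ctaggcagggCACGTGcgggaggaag
*Mybbp1a* site: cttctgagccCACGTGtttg
*Tsr1* site: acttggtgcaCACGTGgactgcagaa
*Wdr43* site: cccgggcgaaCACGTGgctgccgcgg

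The centre of the site lay before the annotated start in *Imp4* (118 bases) and *Nop2* (57 bases), and after it in the other 8 genes. A match of letters does not show that a factor was bound there.

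Total counts ranged from 26328054 to 39181530 read pairs per library, with a median of 35586010. The members were measured with 449 to 186538 counts per library, far above the 3 counts taken as a floor. *Foxp1* itself was at 138 ± 32.7 CPM (SD, n = 3) in the parental line, where CPM is a gene's share of the counts of a library after TMM scaling. Its log2 fold change was -0.41 and -0.39 in the first and second exon 6 clone, which did not pass the test (adjusted p = 0.765 and 0.417). It was -1.29 and -1.69 in the exon 7 clones, which did (adjusted p = 0.00688 and 0.00116). The 10 B cell markers checked were present in each library, at 10.1 to 3205 CPM, and 14 markers of T, myeloid, fibroblast and erythroid cells were at 0 to 7.56 CPM. *Myc* mRNA did not pass the test in any clone, with log2 fold changes of -0.22 and 0.08 in the exon 6 clones and 0.27 and -0.01 in the exon 7 clones.

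3 libraries stood apart from the other libraries of their own line. The SD over all tested genes of the log2 deviation from the other libraries of the line was 0.77 in E6.2 replicate 3, 0.67 in E6.2 replicate 1 and 0.65 in E7.2 replicate 3, against 0.25 to 0.48 in the other 12. Over the members alone this SD was 0.51, 0.41 and 0.36 in the same libraries, against 0.09 to 0.29 in the others. The coefficient of variation of the members between replicates stood out in E6.2 only, with a median of 22.5%. It was 9.71% in the parental line and 6.25%, 13.4% and 9.35% in the other clones (E6.1, then both exon 7 clones). In the next sentence the deviations are again those of the members. In E6.2 replicate 3 the members lay a median of 0.42 log2 units above the other E6.2 libraries, and in E7.1 replicate 1 a median of 0.31 above the other E7.1 libraries.

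**Figure D1:**
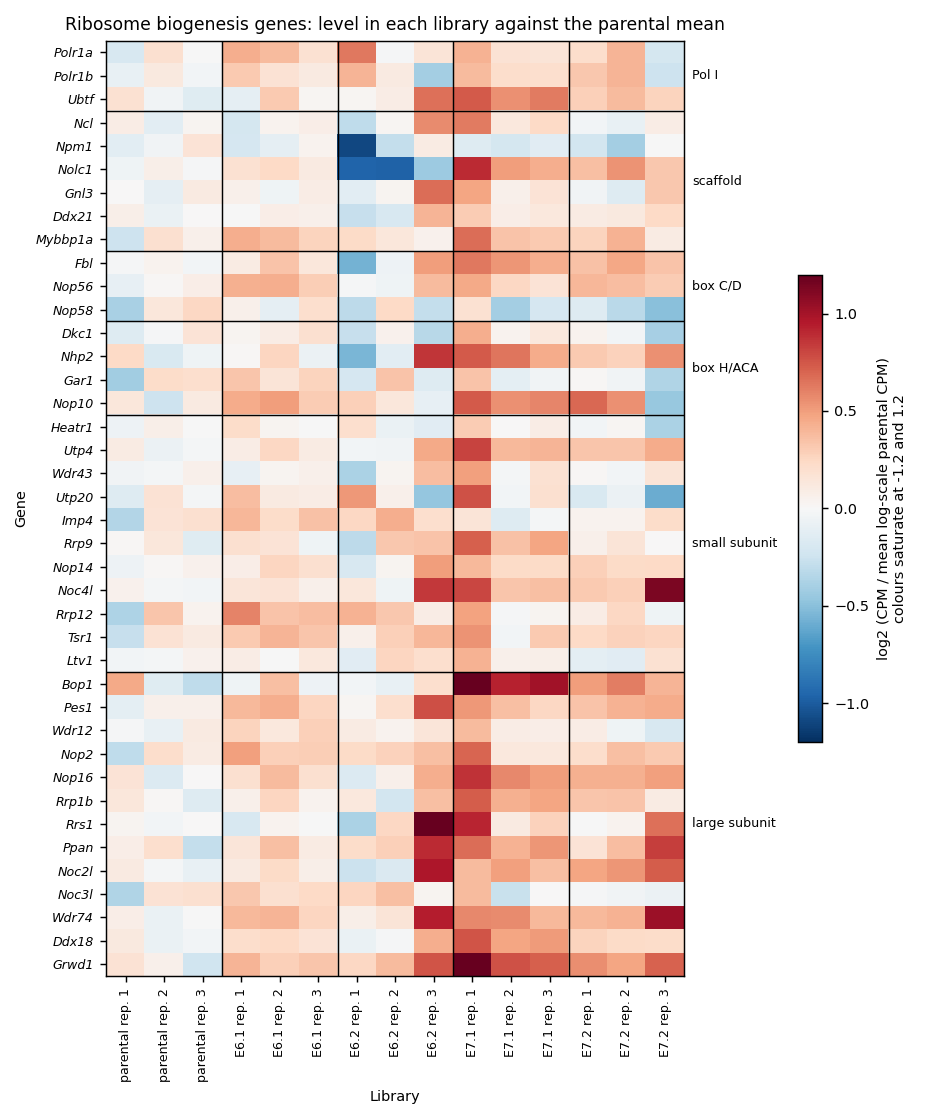
Level of the 40 ribosome biogenesis genes (rows, grouped by role) in the 15 libraries (columns, grouped by line) as the log2 ratio of CPM to the mean of the parental libraries on the log scale; red is higher and blue lower. Most rows are red in E7.1 replicate 1, where 39 of 40 genes lie above the parental mean, and *Nolc1* is blue in the 3 E6.2 libraries.

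*Rrs1*, a factor that brings the 5S RNA-protein particle into the large subunit, was singled out after its values were seen because it was 1.52 log2 units higher in E6.2 replicate 3 than in the other E6.2 libraries. Its levels in E6.2 were 68.3, 105.5 and 244.7 CPM. *Utp20*, a small subunit processing factor, moved the other way, with 132.1, 96.0 and 66.7 CPM. The deviation of E6.2 replicate 3 went with a shorter exonic length among the members (Pearson r = -0.45 with its log2 over 40 genes). The same held among the 8449 genes above a mean of 10 CPM (r = -0.29). Exonic length here covers all annotated exons of a gene and can exceed that of a transcript. It also went with GC content (r = 0.27 over the members and 0.35 over those genes). A correlation with GC content was not particular to this library. Over the members r was -0.68 in parental replicate 3 and -0.67 in E6.1 replicate 3, each against the other libraries of its line. Over those genes it was -0.38 in E6.2 replicate 2 and -0.35 in E6.1 replicate 3. Genes are not independent replicates, so these correlations carry no test. An offset for GC content and gene length in the fit, added after seeing the data, gave the same numbers of members called in each clone, between the E7 and E6 clones and over the 5 lines.

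The members that stood high in E6.2 replicate 3 also tended to stand high in E7.2 replicate 3, with r = 0.75 over the 40 members and 0.45 over all 13904 tested genes, all values within these 6 libraries of 2 lines. *Nop10*, a small protein of the box H/ACA snoRNP, was at 376.6 and 340.6 CPM in E7.2 replicates 1 and 2 and at 170.2 CPM in replicate 3. *Noc4l*, a small subunit factor, was at 55.3 and 54.2 CPM in the same pair and at 97.4 CPM in replicate 3. The results below are given with all 15 libraries and, where this changes a call or a main value, omitting E6.2 replicate 3 and E7.2 replicate 3 (below: the 2 divergent libraries), which leaves 2 libraries in each of these lines. E6.2 replicate 1, which also stood apart, was kept. Its members had a median deviation of -0.29 log2 units from the other E6.2 libraries. The E6.2 values of that fit rest on replicates 1 and 2 and are not free of a divergent library. That fit left out no library of E7.1 or of the parental line. Its calls in E7.1 stand beside 8.8% of all genes called higher there, against 0.396% with all libraries. They are therefore not a result about the members alone.

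**Figure D2:**
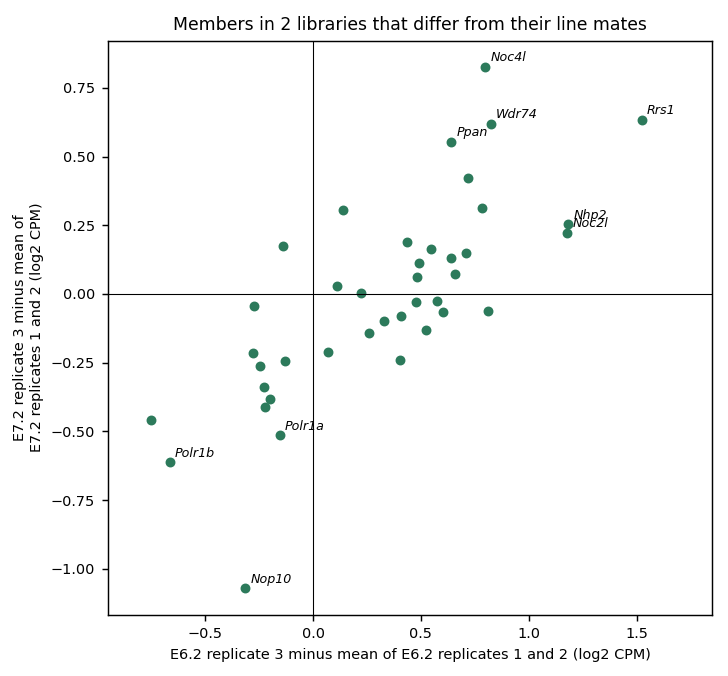
Each point is 1 of the 40 genes; the horizontal axis is the log2 CPM of E6.2 replicate 3 minus the mean of the other E6.2 libraries, and the vertical axis the same for E7.2 replicate 3. The points rise from lower left to upper right (r = 0.75), with *Rrs1* at the far right and *Nop10* at the bottom.

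CPM are relative to the mRNA pool of each library, so fewer expressing cells and less RNA per cell cannot be told apart. Across the set, members lay above the parental level more often than not in each clone, but few single genes passed the test. In E6.1, 36 of 40 members had a log2 fold change above 0, with a median of 0.18, against 49.9% of all tested genes and a median of -0.00. In E6.2, 34 of 40 did, with a median of 0.13, against 56.7% and 0.06. In E7.1, 37 of 40 did, with a median of 0.34 (1.27-fold), against 47.8% and -0.02.

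In E7.2, 30 of 40 members lay above 0, with a median of 0.25, against 50.4% and 0.00. Without the 2 divergent libraries, the E6.2 count fell to 21 of 40 with a median of 0.04, while E7.1 had 38 of 40 and 0.36 and E7.2 had 32 of 40 and 0.29. E6.2 replicate 1 moved the E6.2 median the other way, since it was 0.21 without that library and 0.06 without replicate 3 alone. In E7.1 the median was 0.21 without replicate 1 of that clone. The medians were above 0 in each clone under each scaling tried. These counts describe the list, and the 4 clones share their parental libraries, so they are not 4 separate observations.

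With a call at an adjusted p under 0.05, E6.1 had 0 members lower (0.266% of all genes were called lower) and 0 higher (0.0575% of all genes). E6.2 had 1 member lower, *Nolc1* (1.01% of all genes), and 0 higher (0.165%). E7.1 had 0 members lower (0.82%) and 2 higher, *Bop1* and *Grwd1* (0.396%). E7.2 had 0 lower (0.209%) and 0 higher (0.0863%).

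At an unadjusted p under 0.05, more members were higher than lower in each clone. E6.1 had 5 of 40 members higher (2.87% of all genes) and 0 lower (3.84%). E6.2 had 3 of 40 higher, near the share of all genes (6.26%), and 1 lower (6.79%). E7.1 had 16 of 40 higher (9.94%) and 0 lower (10%), and E7.2 had 11 of 40 higher (5.98%) and 0 lower (7.34%). DESeq2 called 10 members higher in E7.1, against 4.41% of all genes by the same tool. Without the 2 divergent libraries, edgeR called 19 of 40 members higher in E7.1 (8.8% of all genes) and 2 in E7.2, *Noc2l* and *Nop10* (0.882%).

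The mean of the 4 clones had 0 members called lower (0.46% of all genes) and 0 higher (0.0432%). At an unadjusted p under 0.05 there were 13 of 40 higher (3.78%) and 0 lower (6.12%), with 38 of 40 log2 fold changes above 0 and a median of 0.25, against 0.01 for all tested genes. DESeq2 called 1 member, *Grwd1* (0.375% of all genes called higher), and without the 2 divergent libraries edgeR called 2, *Nop10* and *Wdr74* (0.21%). In *Grwd1* all 12 clone libraries lay above all 3 parental libraries, as they did in 0.568% of all genes. 0 members had all 12 below, against 0.885% of all genes.

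**Figure D3:**
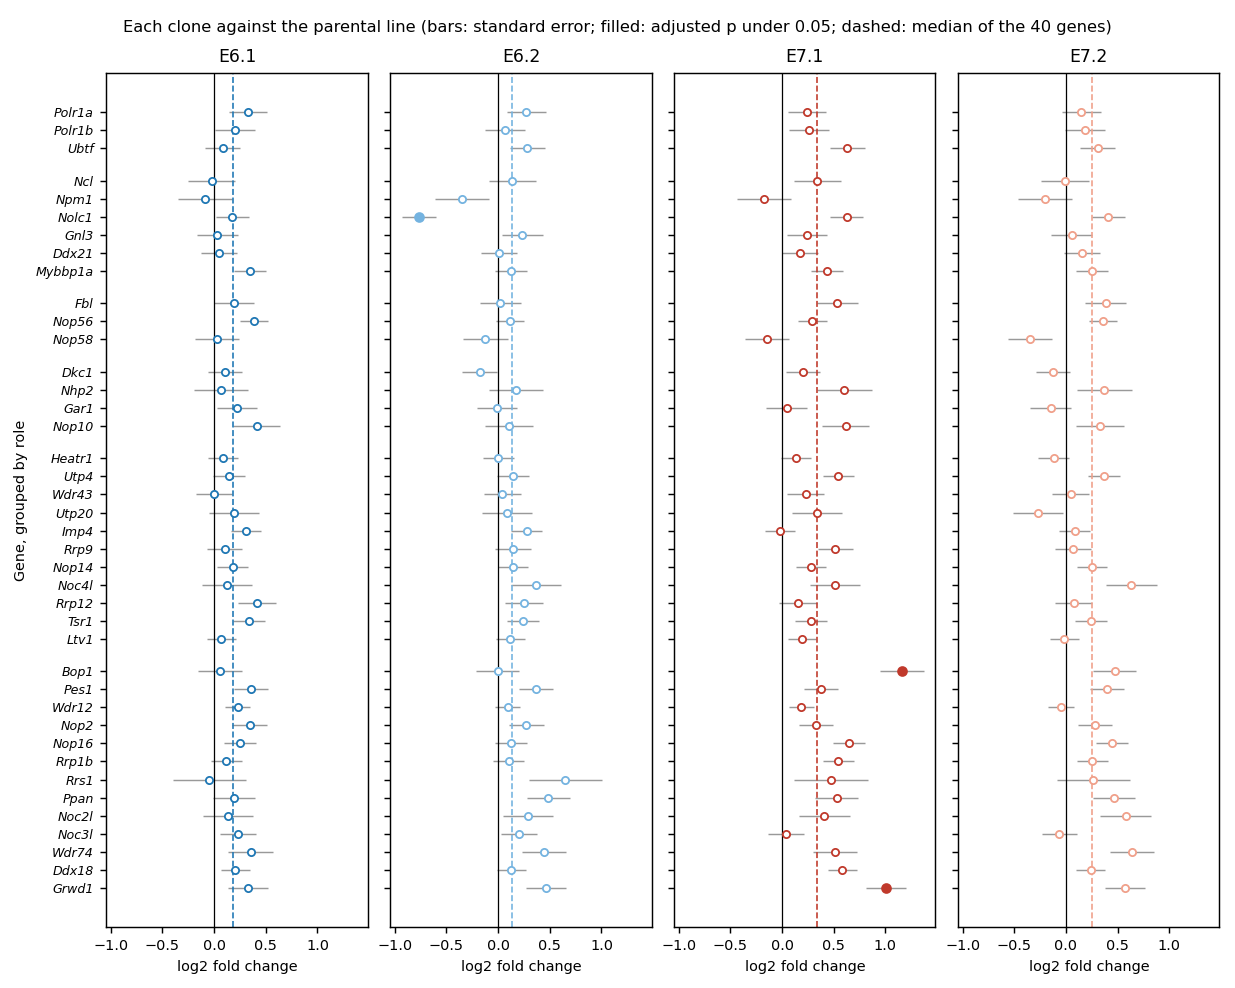
Log2 fold change of each of the 40 genes (rows, grouped by role) in each clone against the parental line, with standard errors; filled points passed the test and dashed lines mark the median of the 40 genes. The dashed line lies to the right of 0 in each panel, at 0.18, 0.13, 0.34 and 0.25 from left to right, and 3 points are filled.

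*Nolc1*, which encodes the nucleolar phosphoprotein Nopp140, a chaperone of snoRNPs, had the smallest p of the members in the test over the 5 lines. It was at 131.0, 142.5 and 135.1 CPM in the parental line and at 154.2, 160.7 and 146.5 CPM in E6.1. It was at 70.1, 69.6 and 100.6 CPM in E6.2, below each library of the other lines. It was at 253.5, 193.1 and 184.2 CPM in E7.1 and at 174.6, 197.6 and 169.8 CPM in E7.2, above each parental and E6 library. *Nolc1* was thus low in 1 exon 6 clone and high in both exon 7 clones.

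Against the parental line *Nolc1* fell by 0.77 in E6.2 on the log2 scale (SE 0.16, adjusted p = 0.0324, lower in 3 of 3 libraries). The exon 7 clones had log2 fold changes of 0.63 (E7.1, adjusted p = 0.0637) and 0.41 (E7.2, adjusted p = 0.310), and E6.1 had 0.18, none of them called. In E6.2 the call was lost without any 1 of the 3 parental libraries, the 3 E6.1 libraries, E6.2 replicates 1 and 2, E7.1 replicate 2 or E7.2 replicate 1 (adjusted p between 0.0512 and 0.115), while the log2 fold change stayed between -0.94 and -0.68. Between clones the difference was larger, at 1.39 for E7.1 against E6.2 (adjusted p = 0.000251) and 1.17 for E7.2 against E6.2 (adjusted p = 0.00109). E6.2 was also lower than E6.1, by a log2 fold change of -0.94 (adjusted p = 0.00660).

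*Bop1* belongs with *Pes1* and *Wdr12* to the PeBoW complex, which is needed to mature the 28S and 5.8S ribosomal RNAs of the large subunit. *Bop1* was at 55.2, 36.6 and 32.6 CPM in the parental line, 38.8, 51.7 and 38.7 CPM in E6.1, and 39.5, 38.0 and 46.5 CPM in E6.2. It was at 119.6, 76.5 and 81.2 CPM in E7.1 and at 57.1, 61.6 and 53.7 CPM in E7.2. The E7.1 libraries lay above all others, and the E7.2 libraries overlapped the parental range at its top.

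*Bop1* rose 2.23-fold in E7.1 (log2 1.16, SE 0.21, adjusted p = 0.0223, higher in 3 of 3 libraries). E7.1 also exceeded E6.1 by 1.10 (adjusted p = 0.0180) and E6.2 by 1.16 (adjusted p = 0.00568). Against the parental line the second exon 7 clone had a log2 fold change of 0.47 and the exon 6 clones had 0.06 and -0.00, none called. The E7.1 call was lost without parental replicate 2 (adjusted p = 0.138), parental replicate 3 (0.148), E7.1 replicate 1 (0.135) or E7.1 replicate 3 (0.0568).

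The partner *Pes1* had log2 fold changes of 0.36 and 0.37 in the exon 6 clones and 0.38 and 0.40 in the exon 7 clones, none called. Its E6.2 value was 0.11 without the 2 divergent libraries, and there its 0.40 in E7.1 was called (adjusted p = 0.0232). *Wdr12* had 0.23 and 0.09, then 0.19 and -0.05, in the same order. The difference of *Pes1* and *Wdr12* from *Bop1* was not tested.

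*Grwd1* encodes a nucleolar WD-repeat protein that binds histones and takes part in large subunit assembly. It was at 28.8, 26.6 and 21.6 CPM in the parental line, 33.7, 31.2 and 32.1 CPM in E6.1, and 30.3, 33.1 and 43.1 CPM in E6.2. It was at 69.2, 43.4 and 41.9 CPM in E7.1 and at 37.6, 35.4 and 41.6 CPM in E7.2. Each clone library was above the highest parental library. *Grwd1* rose 2.01-fold in E7.1 (log2 1.00, SE 0.19, adjusted p = 0.0296), and its log2 fold changes in the other 3 clones, 0.33 and 0.47 for exon 6 and 0.57 for E7.2, were not called. The E7.1 call was lost without parental replicate 2 (adjusted p = 0.131), parental replicate 3 (0.188), E6.1 replicate 1 (0.0516), E6.1 replicate 3 (0.0569) or E7.1 replicate 1 (0.154).

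The number of members called higher in E7.1 also turned on single libraries. It was 0 without parental replicate 2, parental replicate 3 or E7.1 replicate 1, and 1 without E6.1 replicate 1, E6.1 replicate 3 or E7.1 replicate 3. It was 7 without parental replicate 1, 5 without E6.2 replicate 1, 12 without E6.2 replicate 3 and 7 without E7.2 replicate 3. In E7.2 the number of members called higher was 2 without E6.2 replicate 3, *Noc2l* and *Wdr74*. The share of all genes called higher in E7.1 moved too, from 0.396% with all libraries to 8.8% without the 2 divergent libraries. Shares for the fits without a single library are not given, so these counts are not a result about the members alone.

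**Figure D4:**
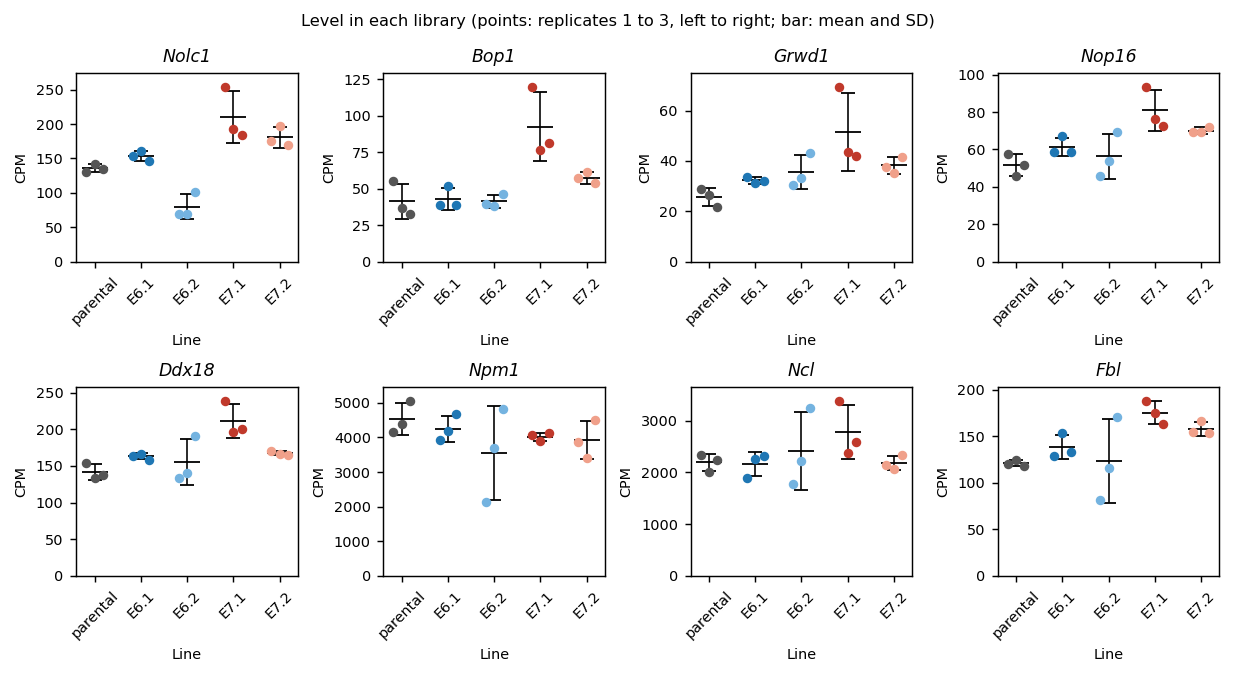
Normalized CPM of 8 of the genes in each library of the 5 lines; points are replicates 1 to 3 from left to right, bars are the mean and SD, and each vertical axis starts at 0. *Nolc1* is lowest in E6.2, *Bop1* is highest in E7.1, and *Npm1*, *Ncl* and *Fbl* spread widely in E6.2.

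The exon 7 clones were then set against the exon 6 clones as 6 libraries against 6. The fit was that to all 15 libraries, where the parental libraries enter the estimate of the spread. The libraries of a clone are passages of it, so the p values measure the spread between passages and not between clones. The calls are therefore not a test of the exon targeted. 3 members were called higher in the E7 clones (6.21% of all genes were called higher) and 0 lower (5.85%). They were *Nolc1* (log2 0.81, SE 0.11, adjusted p = 0.00123), *Bop1* (0.79, SE 0.15, adjusted p = 0.00772) and *Nop16* (0.36, SE 0.11, adjusted p = 0.0479). Clone by clone, E7.2 against E6.1 had 0 members called, while each other pair of an E7 and an E6 clone had called members, given below. As 3 of 40 is 7.5%, the share of members called was near that of all genes. The median of the members was 0.11, against -0.03 for all tested genes, and 28 of 40 lay above 0, against 46.3%. The median was 0.05 without E7.1 replicate 1 and 0.21 without E6.2 replicate 3.

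*Nop16*, a late nucleolar factor of the large subunit, was at 57.3, 45.7 and 51.5 CPM in the parental line, 58.7, 67.0 and 58.4 CPM in E6.1, and 45.8, 53.7 and 69.5 CPM in E6.2. It was at 93.3, 76.5 and 72.8 CPM in E7.1 and at 69.1, 69.1 and 72.2 CPM in E7.2. The E7 libraries overlapped the E6 range through E6.2 replicate 3. The call of *Nop16* held in 3 of 15 fits that left out 1 library (without parental replicate 1, E6.2 replicate 3 or E7.2 replicate 3) and its adjusted p was between 0.0540 and 0.127 in the other 12. The calls of *Nolc1* and *Bop1* held in all 15.

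Without the 2 divergent libraries, 16 members were called higher in the E7 clones (18.5% of all genes) and 0 lower (14.7%). They were *Nolc1*, *Noc2l*, *Bop1*, *Fbl*, *Nhp2*, *Nop16*, *Ddx18*, *Utp4*, *Rrp1b*, *Ubtf*, *Noc4l*, *Nop10*, *Grwd1*, *Wdr74*, *Nop14* and *Ddx21*. Leaving out E6.2 replicate 3 alone gave 15 members, and E7.2 replicate 3 alone gave 5, with no share of all genes given for these fits. DESeq2 with all libraries called 5 members higher (10% of all genes).

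**Figure D5:**
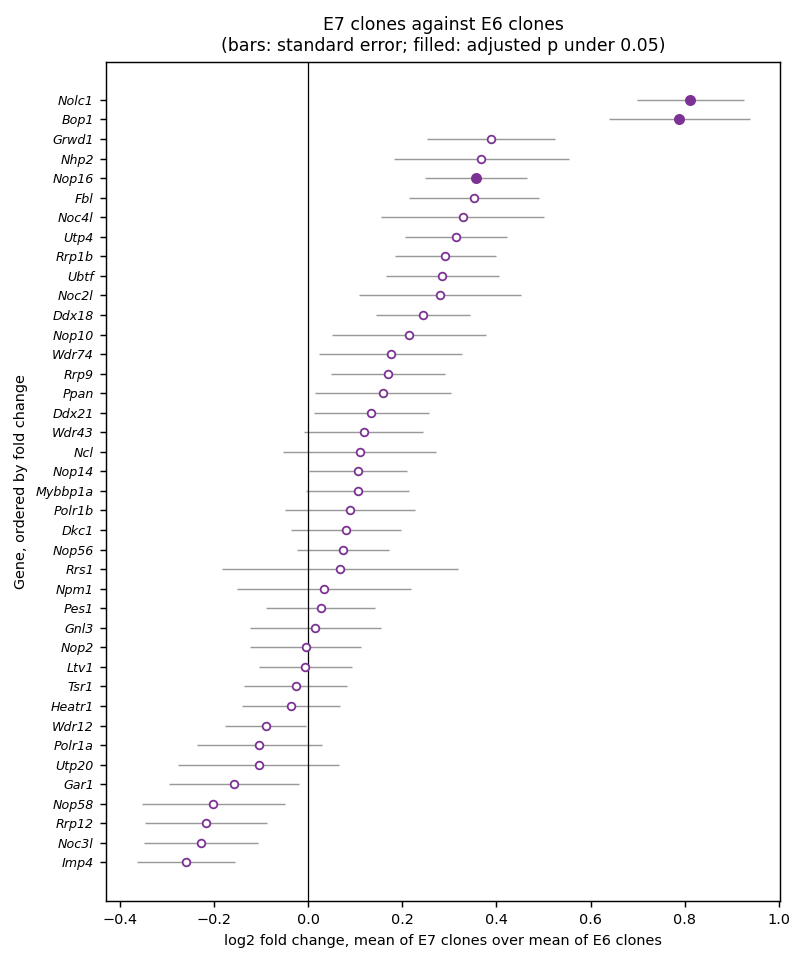
Log2 fold change of each of the 40 genes for the mean of the E7 clones over the mean of the E6 clones, ordered by size, with standard errors; filled points passed the test. The 3 filled points are *Nolc1* (0.81), *Bop1* (0.79) and *Nop16* (0.36), and *Imp4* lies at the low end with -0.26, not called.

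A test for any difference among the 5 lines called 3 members, *Nolc1* (adjusted p = 0.00137), *Bop1* (0.010) and *Grwd1* (0.0416), against 6.28% of all genes. The next in order were *Nop16* (adjusted p = 0.0680) and *Ddx18* (0.0878). The count was 14 without E6.2 replicate 3 and 1 without E7.1 replicate 1, with no share of all genes given for these fits. *Ddx18*, a DEAD-box RNA helicase of the large subunit, was at 153.6, 133.4 and 138.0 CPM in the parental line, 164.0, 167.0 and 158.7 CPM in E6.1, and 133.5, 140.4 and 191.0 CPM in E6.2. It was at 238.5, 196.4 and 200.9 CPM in E7.1, above all other libraries, and at 170.7, 166.2 and 165.2 CPM in E7.2.

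In the pairs of clones, fitted with all 15 libraries only, called genes in either direction were 1 member for E6.2 against E6.1 (*Nolc1*, 1.24% of all genes), 1 for E7.1 against E6.1 (*Bop1*, 3.24%) and 0 for E7.2 against E6.1 (0.352%). E7.1 against E6.2 had 4 members, *Nolc1*, *Bop1*, *Nop16* and *Ddx18* (16.9%), all higher in E7.1, where 8.22% of all genes were called higher. E7.2 against E6.2 had 1, *Nolc1* (2.24%), and E7.2 against E7.1 had 0 (0.59%). Between the exon 7 clones the smallest p was that of *Bop1*, with -0.69 on the log2 scale for E7.2 against E7.1 (SE 0.21, adjusted p = 0.223).

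Among the 3 genes of RNA polymerase I transcription, 0 were called. *Polr1a*, the largest subunit, was at 50.5, 66.0 and 57.7 CPM in the parental line and at 78.0, 75.2 and 65.4 CPM in E6.1. It was at 89.3, 57.1 and 64.1 CPM in E6.2, 76.9, 65.0 and 64.3 CPM in E7.1, and 66.6, 76.7 and 49.9 CPM in E7.2, and each clone overlapped the parental range, E6.1 in 1 library. *Polr1b*, the second subunit, had log2 fold changes of 0.07 to 0.26 over the clones. *Ubtf*, which binds and opens the ribosomal DNA, had 0.08 and 0.28 in the exon 6 clones and 0.63 and 0.31 in the exon 7 clones, with an adjusted p of 0.0711 in E7.1. *Ubtf* without the 2 divergent libraries was called higher in E7.1 (log2 0.65, adjusted p = 0.00956), as were 8.8% of all genes. Its E6.2 value was then 0.05.

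The 6 scaffold and multifunctional factors held the most abundant members. *Npm1* (nucleophosmin, a ribosome chaperone) was the highest per length, at 1702 CPM per kb of exon in the parental line, ahead of *Ncl* (nucleolin) at 215.5 and *Nop10* at 212.0. *Npm1* was at 4154, 4402 and 5051 CPM in the parental line, 3921, 4186 and 4667 CPM in E6.1, and 2127, 3709 and 4836 CPM in E6.2. It was at 4060, 3896 and 4123 CPM in E7.1 and at 3875, 3417 and 4520 CPM in E7.2. The E7.1 libraries lay below the parental range, and the log2 fold changes were below 0 in the 4 clones (-0.09 and -0.35 for exon 6, -0.17 and -0.20 for exon 7), none called. The E6.2 value was -0.64 without the 2 divergent libraries (adjusted p = 0.154). *Npm1* has 3 near-identical pseudogenes, and read pairs that align to both were left out of the counts.

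*Ncl*, which binds ribosomal RNA precursors, was at 2331, 2011 and 2244 CPM in the parental line and at 1773, 2228 and 3246 CPM in E6.2. It was at 1897, 2257 and 2319 CPM in E6.1, 3379, 2384 and 2590 CPM in E7.1, and 2145, 2061 and 2330 CPM in E7.2. The E7.1 libraries lay above the parental ones, with a log2 fold change of 0.34 that was not called. In E6.2 it was 0.14, and -0.14 without the 2 divergent libraries. *Mybbp1a*, a nucleolar protein that binds Myb, was at 303.1, 413.3 and 375.8 CPM in the parental line, 489.5, 468.5 and 434.9 CPM in E6.1, and 573.2, 456.4 and 449.1 CPM in E7.1. Both of these clones lay above the parental range, without a call (log2 0.35 and 0.44). The E6.1 value was 0.23 without parental replicate 1. It was at 423.0, 396.6 and 373.7 CPM in E6.2 and at 433.8, 481.4 and 385.5 CPM in E7.2. *Gnl3* (nucleostemin, a GTPase) had log2 fold changes of 0.03 to 0.24 and *Ddx21* (an RNA helicase) of 0.01 to 0.17 with all libraries. Without the 2 divergent libraries *Nolc1* and *Mybbp1a* were called higher in E7.1, and in E6.2 *Gnl3* was at -0.05 in place of 0.23 and *Ddx21* at -0.24 in place of 0.01, neither called.

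The box C/D proteins carry the methylation of ribosomal RNA, and 0 of 3 were called. *Fbl* (fibrillarin, the methyltransferase) was at 120.1, 124.7 and 118.1 CPM in the parental line, 129.1, 153.3 and 132.5 CPM in E6.1, and 81.5, 116.1 and 171.1 CPM in E6.2. It was at 187.7, 175.0 and 163.5 CPM in E7.1 and at 154.2, 166.3 and 153.4 CPM in E7.2. E6.1 and both exon 7 clones lay above the parental range (log2 0.19, 0.54 and 0.39), with an adjusted p of 0.146 in E7.1. *Fbl* without the 2 divergent libraries was called higher in E7.1 (log2 0.56, adjusted p = 0.0156), and its E6.2 value was -0.29 in place of 0.02, not called.

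*Nop56*, a core protein of the same particle, had the smallest p of the members in E6.1 (log2 0.39, SE 0.14, adjusted p = 0.520). It was at 230.5, 249.4 and 261.2 CPM in the parental line, 331.3, 334.6 and 303.2 CPM in E6.1, and 244.7, 237.6 and 320.4 CPM in E6.2. It was at 338.7, 292.5 and 276.4 CPM in E7.1 and at 325.7, 319.5 and 305.0 CPM in E7.2, so that 3 clones lay above the parental range and E6.2 overlapped it. *Nop58*, its partner, went the other way in 3 clones, with log2 fold changes of 0.03, -0.12, -0.15 and -0.35, none called.

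The box H/ACA proteins carry pseudouridylation and bind the telomerase RNA, and 0 of 4 were called. *Dkc1* (dyskerin, the pseudouridine synthase) was at 297.8, 329.1 and 371.4 CPM in the parental line, 339.0, 352.9 and 379.7 CPM in E6.1, and 274.2, 344.0 and 263.4 CPM in E6.2. It was at 449.4, 340.3 and 362.0 CPM in E7.1 and at 342.2, 324.6 and 250.8 CPM in E7.2, and each clone overlapped the parental range. *Nhp2* and *Nop10* had log2 fold changes of 0.60 and 0.61 in E7.1 and of 0.37 and 0.33 in E7.2. Both were called higher in E7.1 without the 2 divergent libraries (adjusted p = 0.0158 and 0.00975). *Nop10* was then also called in E7.2 (log2 0.64, adjusted p = 0.0385), and *Nhp2* in E6.2 was at -0.33 in place of 0.17, not called. With all libraries, *Gar1* ranged from -0.15 to 0.22 over the clones.

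In the 11 small subunit factors 0 were called, and the median log2 fold changes were 0.14 and 0.14 in the exon 6 clones and 0.28 and 0.07 in the exon 7 clones. *Rrp12*, which serves the export of both subunits, was at 30.2, 49.3 and 40.3 CPM in the parental line, 59.3, 49.7 and 50.5 CPM in E6.1, and 52.3, 49.0 and 41.6 CPM in E6.2. It was at 54.7, 38.8 and 40.2 CPM in E7.1 and at 41.6, 46.6 and 37.9 CPM in E7.2, and among these lines E6.1 was clear of the parental range (log2 0.41, adjusted p = 0.707). This value was 0.24 without parental replicate 1.

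The other small subunit factors spread by clone. *Utp4*, *Rrp9* (a U3 snoRNP protein) and *Noc4l* had log2 fold changes of 0.55, 0.52 and 0.51 in E7.1. In E7.2 they had 0.37, 0.07 and 0.63, of which *Noc4l* had 0.34 without the 2 divergent libraries. In that fit these 3 genes and *Nop14* were called higher in E7.1, and *Noc4l* in E6.2 was at 0.04 in place of 0.37. *Imp4*, also of the U3 snoRNP, had 0.31 and 0.28 in the E6 clones and -0.02 and 0.08 in the E7 clones. *Tsr1*, a late factor of the small subunit, had 0.24 to 0.34, but 32.3% of its exonic length overlaps *Srr* on the opposite strand and the counting did not use strand. *Utp20* ranged from -0.27 to 0.34, and *Heatr1*, *Wdr43*, *Nop14* and *Ltv1* stayed between -0.12 and 0.28.

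With all libraries, the 13 large subunit factors had the highest median of the role groups in each clone, though in E6.2 RNA polymerase I transcription also had 0.27. In E7.1 the median was 0.51, and 13 of 13 lay above 0 there. The medians were 0.23 and 0.27 in the exon 6 clones and 0.40 in the second exon 7 clone, and 2 genes were called in E7.1, *Bop1* and *Grwd1*. Without the 2 divergent libraries, 9 of the 13 were called higher in E7.1 (8.8% of all genes) and the median in E6.2 was 0.06. In that fit the RNA polymerase I genes had a higher median in E6.2 (0.26), and the box C/D proteins in E7.2 (0.42 against 0.37). *Rrs1* in E6.2 was then at -0.03 in place of 0.65 and *Noc2l* at -0.22 in place of 0.29, neither called. These group medians have no test beside them.

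*Wdr74*, which helps release a late factor from the large subunit precursor, had the smallest p of the members in E7.2 (log2 0.64, SE 0.22, adjusted p = 0.263). It was at 34.0, 30.4 and 32.0 CPM in the parental line, 42.0, 42.7 and 38.5 CPM in E6.1, and 33.8, 35.7 and 61.8 CPM in E6.2. It was at 47.9, 47.6 and 42.0 CPM in E7.1 and at 41.9, 42.8 and 65.3 CPM in E7.2, above the parental range in 3 clones, while E6.2 overlapped it by 1 library. Its adjusted p in E7.2 was 0.0498 without E6.2 replicate 3, and its E6.2 value was 0.11 in place of 0.45 without the 2 divergent libraries.

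*Ppan*, a nucleolar factor of early large subunit assembly, was at 35.9, 39.2 and 28.0 CPM in the parental line, 37.5, 43.6 and 36.5 CPM in E6.1, and 39.6, 41.5 and 63.4 CPM in E6.2. It was at 54.3, 45.4 and 49.0 CPM in E7.1 and at 38.1, 44.0 and 60.4 CPM in E7.2. E6.2 and E7.1 lay above the parental range, with log2 fold changes of 0.49 (adjusted p = 0.337) and 0.53. The E6.2 value was 0.26 without E6.2 replicate 3. *Noc2l* had 0.14, 0.29, 0.41 and 0.58 over the clones, with 20.9% of its exonic length under *Samd11* on the opposite strand. *Rrp1b* had 0.55 in E7.1, *Nop2* (a ribosomal RNA cytosine methyltransferase) 0.27 to 0.34, and *Noc3l* -0.06 to 0.23.

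The members also share features with the genome around them. 8 of the 40 (20%) hold snoRNA genes on their own strand, 23 in all, against 1.93% of the 11281 tested protein-coding genes. They were *Nop56* (5), *Nop58* (4), *Ncl*, *Gnl3* and *Wdr43* (3 each), *Tsr1* and *Ppan* (2 each) and *Dkc1* (1). snoRNAs of mammals are cut from introns of such host genes, so a host transcript makes both a nucleolar protein and a guide RNA. Pseudogenes at least 90% identical over at least 50% of the transcript were found for *Npm1* (3), *Ddx18* (3), *Fbl* (2), *Pes1* (2) and *Rrs1* (1). The members had a median GC content of 50.4% and a median exonic length of 2946 bases, against 49.7% and 3211 bases for all tested genes.

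A further list of 104 ribosome assembly genes outside the set was taken from RNA polymerase I subunits and factors, small and large subunit factors and the exosome, and 102 were tested. In E7.1, 8 were called higher (0.396% of all genes) and 0 lower (0.82%), among them *Tbl3* (log2 1.02, adjusted p = 0.0186) and *Polr1e* (0.65, adjusted p = 0.0399). The other 6 were *Wdr46*, *Bms1*, *Nop9*, *Ddx56*, *Rrp15* and *Urb2*, with log2 fold changes of 0.54 to 0.78. The exon 6 clones, the second exon 7 clone and the mean of the 4 clones had 0 called, and at an unadjusted p under 0.05 they had 9, 7, 16 and 19 higher (2.87%, 6.26%, 5.98% and 3.78% of all genes) and 0 lower. In E7.1 there were 28 higher (9.94%) and 4 lower (10%).

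Between E7 and E6 clones, 7 of the 102 were higher and 6 lower, near the shares of all genes called (6.21% and 5.85%). The 7 were *Tbl3* (0.79), *Nop9* (0.61), *Wdr46*, *Bms1*, *Ftsj3*, *Pelp1* and *Urb2*, and the 6 were *Ngdn* (-0.74), *Sbds* (-0.53), *Esf1*, *Taf1b*, *Ddx55* and *Pwp1*. The median log2 fold changes of the 102 were 0.17 and 0.13 in the exon 6 clones, 0.18 and 0.06 in the exon 7 clones, and -0.01 for E7 against E6.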

How the data were processed

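RNA from 15 libraries, 3 for each of 5 lines, was sequenced as an mRNA fraction on an Illumina instrument. The authors deposited raw counts of read pairs per gene for each library, and the file headers name featureCounts 1.5.0 and an annotation of GRCm38 that includes ERCC controls (summed count 0). Per the labels the reads were aligned with HISAT to mm10. The command in the header sets neither strand nor multiple alignments, so by default strand was ignored and pairs with several alignments or over several genes were not counted. Each table lists 41480 features.

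Groups were taken from the sample titles. In R 4.3.3, genes were filtered with filterByExpr in edgeR 4.0.16, TMM-normalized and fitted with a quasi-likelihood model to all 15 libraries, with line as the only factor. Benjamini-Hochberg adjustment ran over the 13904 tested genes of each comparison, and an adjusted p under 0.05, whatever the fold change, made a call. Pairs of clones were compared after the data had been seen. CPM are TMM-normalized. Standard errors were worked back from the log2 fold change and the p value of the same fit, so they add nothing to the p value. A total of 3 counts, the floor, was 0.0751 to 0.118 CPM and covers counting error only. Replicates are separate passages of 1 line, so p values measure the spread between passages, not between clones.

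The members, their role groups and the further gene list were chosen with earlier results of these data known. Genes with a value for each library are those called in any comparison, the 3 with the smallest p in each clone and in E7 against E6, the 5 with the smallest p over the 5 lines, and *Npm1*, *Ncl*, *Fbl*, *Dkc1* and *Polr1a*; others are named where stated. Pseudogenes were searched with blastn 2.17.0. The method was tested on simulated data. Alternatives were other size factors, no filter, DESeq2 1.42.0, other edgeR tests, a replicate block, fits without libraries, and an offset for GC content and gene length, which was added after seeing the data.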

Additional observations from a re-analysis of the deposited data

Results flagged for a closer look

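Differences between clones passed the test of the difference itself for 4 genes. For the mean of the E7 clones against the mean of the E6 clones these were *Nolc1* (log2 0.81), *Bop1* (0.79) and *Nop16* (0.36), each higher in the E7 clones. *Nolc1* was also lower in E6.2 than in E6.1 (log2 -0.94), so the exon 6 clones differed from each other, and *Bop1* was higher in E7.1 than in E6.1 (1.10). E7.1 exceeded E6.2 in *Nolc1* (1.39), *Bop1* (1.16), *Nop16* (0.52) and *Ddx18* (0.45), and E7.2 exceeded E6.2 in *Nolc1* (1.17). For E7 against E6, 7.5% of members were called higher, near the 6.21% of all genes. For E7.1 against E6.2, 10% of members were called higher, near the 8.22% of all genes, and 0 lower. In either direction 16.9% of all genes were called. Of all genes, 1.24% were called for E6.2 against E6.1, 3.24% for E7.1 against E6.1 and 2.24% for E7.2 against E6.2. The exon targeted and the clone cannot be told apart with 2 clones for each exon. With 3 libraries per line, single libraries were not tested as outliers.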

How the results depend on the processing

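Of the 12 counts of members called against the parental line or between exons, and the count over the 5 lines, those for E6.1 (0 lower and 0 higher) did not move under any setting. *Nolc1* in E6.2 was no longer called with a replicate block (0 members, adjusted p = 0.0655) or with only the 6 libraries compared (0 members, 0.263). In E7.1 the 2 members called higher became 4 with DESeq2 size factors, 4 with the other quasi-likelihood setting of edgeR, 8 with its likelihood ratio test, 10 with DESeq2 and 19 without both divergent libraries (E6.2 replicate 3, E7.2 replicate 3). The latter setting gave 2 in E7.2, 2 for the mean of the 4 clones, 16 for E7 against E6 and 17 over the 5 lines. DESeq2 gave 1 for the mean of the 4 clones, 5 for E7 against E6 and 8 over the 5 lines, where the likelihood ratio test gave 6. With only 6 libraries, *Bop1* and *Grwd1* had adjusted p values of 0.0523 and 0.0529 in E7.1, where 2 other members, *Fbl* and *Ubtf*, were called higher. The shares of all genes called higher moved too. In E7.1 they were 0.396% in the main fit, 4.41% with DESeq2 and 8.8% without both divergent libraries. For E7 against E6 they were 6.21%, 10% and 18.5% in the same order. The cause of these changes was not tested.

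Leaving out 1 library at a time gave 0 to 1 members lower in E6.2, 0 to 12 higher in E7.1, 0 to 2 higher in E7.2, 2 to 15 higher for E7 against E6 and 1 to 14 over the 5 lines. The shares of all genes called in these fits are not given here. The median log2 fold change of the members ranged from 0.21 to 0.42 in E7.1, 0.06 to 0.21 in E6.2 and 0.05 to 0.21 for E7 against E6. The offset for GC content and gene length changed none of these numbers of members called. Deviations from the line means correlated between -0.17 and 0.45 for the same replicate number in different lines (mean 0.05). The highest was E6.2 replicate 3 with E7.2 replicate 3. The mean for different numbers was -0.02. Centring each line on its own libraries ties these means together, so they do not show whether replicate numbers pair the libraries. With the replicate block, E7 against E6 kept a log2 fold change of 0.36 for *Nop16* but not its call (adjusted p = 0.0661), as did the fit with no filter (0.37, adjusted p = 0.0871).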
